A study of Mus musculus with 4 samples.

Results

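The microRNAs (miRNAs) miR-132 and miR-212 are made from neighbouring hairpins of 1 cluster on mouse chromosome 11. Their 2 probes, mmu-miR-132 and mmu-miR-212, were picked by name from a panel of 566 mouse miRNA probes, any arm suffix ignored; the panel held 0 star-arm probes for them. The pair was selected on a reading of the same liver values that are given here, so their differences between tumours and normal liver are a description and carry no test. Levels were counted in 2 liver tumours and 2 normal livers, with total RNA hybridised to colour-coded probes in the nCounter assay. Per the labels, female mice with both Nf2 alleles floxed (NF2fl/fl) received AAV2/8-Cre, a viral vector whose Cre recombinase removes Nf2 in hepatocytes, or PBS, and livers were examined 50 weeks later. Nf2 encodes merlin, a tumour suppressor. The tumour samples are dissected tumours. The labels call the other samples "normal" without tying them to the PBS animals, and do not state whether 2 samples of 1 group are different mice, so SD and SE may be technical. Their protocol gives 3 mice, without saying whether in all or per treatment; if in all, at least 2 of the 4 samples share an animal.

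Both miRNAs are cut from a common primary transcript. Their transcription is driven by CREB, the cAMP-responsive transcription factor, and they were studied first in neurons, where activity and neurotrophins induce them. Among the messenger RNAs miR-132 represses are those of the GTPase-activating proteins p250GAP and p120RasGAP. Outside the brain miR-132 is known from growing endothelium, from monocytes exposed to endotoxin and, in liver, from hepatic stellate cells. miR-212 is usually the rarer product of the cluster.

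The sequences show why the pair is treated as a family. They are from RefSeq (GRCm38.p6), given 5′ to 3′ with the seed, bases 2 to 8, in capitals. The probe names carry no arm, and in the older naming a name without an arm stood for the arm now called 3p, in both genes.
mmu-miR-132-3p: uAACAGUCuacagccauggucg
mmu-miR-212-3p: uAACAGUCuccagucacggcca

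The seeds were identical, and of 1738 mature mouse sequences in RefSeq only these 2 had that seed. Over the 22 bases of each arm 17 positions were the same (77.3% identity). Counted from 1 at the 5′ end of miR-132-3p, with the miR-132-3p base first, the substitutions were A10C, C14U, U17C, U20C and G22A, all outside the seed. How far each probe also bound the other miRNA was not tested. The hairpins are given next, with the 3p arm in capitals, to show how short the locus is.
Mir212, chr11:75173388-75173478, plus strand: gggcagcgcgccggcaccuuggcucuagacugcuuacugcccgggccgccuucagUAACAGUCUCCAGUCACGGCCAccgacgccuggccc
Mir132, chr11:75173682-75173747, plus strand: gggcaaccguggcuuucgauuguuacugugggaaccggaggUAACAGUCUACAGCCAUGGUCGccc

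Only 203 bases separate the hairpins. RefSeq annotates 0 other genes over them, so the cluster is intergenic in that annotation. It lies 3132 bases from Hic1, a transcriptional repressor gene, and 2195 bases from Ovca2. Within 500 kb on either side RefSeq places 3 other miRNA hairpins, of which Mir22, 290 kb away, had a probe on the panel.

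The deposited values are probe counts that the authors multiplied by 1 factor per sample, 0.395 and 0.905 in the tumours and 2.09 and 2.30 in the normal livers. Whole counts were recovered from them. Mouse miRNA counts totalled 239727 and 123818 in the tumours and 68260 and 62054 in the normal livers, so the tumours were counted more deeply. A miRNA was taken as detected where its count exceeded the mean plus 2 SD of the sample's 6 negative controls. That threshold was 17.6 and 14.9 counts in the tumours and 18.3 and 11.2 in the normal livers. The hepatocyte miRNA miR-122 held 13.2% and 14.6% of mouse miRNA counts in the tumours and 17.2% and 20.4% in the normal livers.

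miR-132 was the detected member. It gave 186 and 69 counts in the tumours, against 16 and 19 counts in the normal livers. Both tumours lay far above their thresholds, by 10.6 and 4.63 times. Of the normal livers, replicate 2 was above its threshold by 1.70 times and replicate 1 was below it, at 0.873 times, so miR-132 stood at the edge of detection there. In normal liver replicate 1, 1 of the 6 negative controls and 9 of 33 probes for mouse herpesvirus miRNAs gave as many counts or more. In normal liver replicate 2 these were 0 and 2. In the tumours 0 of either did, but the highest herpesvirus probe gave 159 and 49 counts, well above the thresholds there. By count miR-132 ranked 91st and 98th of the 566 mouse miRNAs in the tumours and 186th and 143rd in the normal livers.

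miR-212 was not detected in any sample. Its probe gave 10 and 6 counts in the tumours, against 6 and 1 counts in the normal livers. All 4 counts were at 0.568 of the threshold or less. At least 18 of the 33 herpesvirus probes matched or exceeded it in each sample, and all 33 did in normal liver replicate 2. The deposited values of 3.95 and 5.43 in the tumours, against 12.5 and 2.30 in the normal livers, are therefore multiples of background counts, and the groups overlap. No change is read from it. At this depth the seed family was seen through miR-132 alone.

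**Figure D1:**
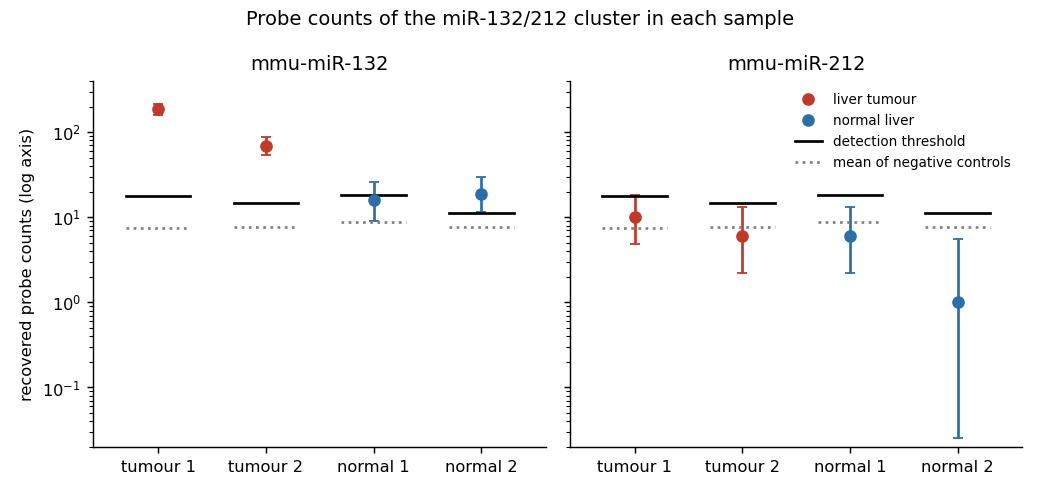
Recovered probe counts (log axis) of mmu-miR-132 and mmu-miR-212 in each sample, with exact 95% Poisson intervals that cover counting error only; black bars mark each sample's detection threshold and dotted bars the mean of its negative controls. miR-132 stands clear of the threshold in both tumours (186 and 69 counts) and near it in both normal livers (16 and 19), while every miR-212 point lies below it.

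On the deposited scale miR-132 had 73.5 and 62.5 scaled counts in the tumours, against 33.4 and 43.6 in the normal livers. Both tumours were above both normal livers. The means were 68.0 ± 7.80 in tumours and 38.5 ± 7.25 in normal liver (SD, n = 2 each). On the log2(value + 1) scale the tumour minus normal difference was 0.81 (SE 0.28 from limma), or 1.76-fold. The gap between the group means, on that scale, exceeded the SD within either group (0.16 in tumours and 0.27 in normal liver).

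Scale changed the size of the difference more than its direction. As a share of all mouse miRNA counts, miR-132 took 776 (95% exact binomial interval 668 to 896) and 557 (434 to 705) CPM in the tumours (CPM, counts per 1000000 mouse miRNA counts). In the normal livers it took 234 (134 to 381) and 306 (184 to 478). The intervals of liver tumour replicate 2 and normal liver replicate 2 overlap, and the others of opposite groups do not. The mean share was 667 ± 155 CPM in tumours and 270 ± 50.8 in normal liver (SD, n = 2 each), a ratio of 2.47.

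Measured against the spiked positive controls, the gap was wider. miR-132 had 46.7 and 25.8 counts per 100 positive-control counts (geometric mean of the 6 controls) in the tumours, against 8.01 and 11.5 in the normal livers. The group means were 36.2 ± 14.8 and 9.77 ± 2.49, a ratio of 3.71, with the tumours far apart from each other. The widening was not particular to miR-132. Over the 276 miRNAs tested, the median log2 difference was 0.09 with equal positive controls, against -0.90 as deposited. The deposited factors equalised neither these controls nor the mouse miRNA total, which was 94703 and 112065 scaled counts in the tumours and 142363 and 142488 in the normal livers. In bulk tissue, more cells that make a miRNA and more of it per cell cannot be told apart.

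**Figure D2:**
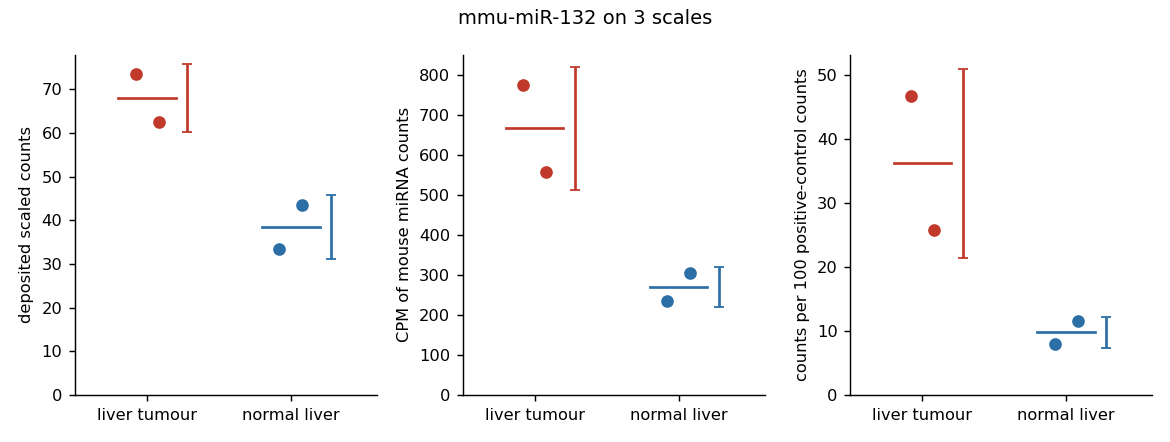
Level of mmu-miR-132 in 2 liver tumours and 2 normal livers on 3 linear scales: deposited scaled counts, CPM of mouse miRNA counts, and counts per 100 positive-control counts; points are samples, lines are means and bars are SD. The tumours lie above the normal livers on each, with ratios of means of 1.77, 2.47 and 3.71.

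Background made up a large part of the normal liver signal. The mean of the negative controls was 7.5 and 7.67 counts in the tumours and 8.83 and 7.67 in the normal livers. It equalled 4.03% and 11.1% of the miR-132 count in the tumours, against 55.2% and 40.4% in the normal livers. With it subtracted, miR-132 stood at 745 and 495 CPM in the tumours, against 105 and 183 in the normal livers, a ratio of means of 4.31. The background-subtracted values in the normal livers rest on 7.17 and 11.3 counts, so this ratio is imprecise. With normal liver replicate 1 raised to its own threshold in place of its measured value, the log2 difference was 0.72.

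Among the 276 miRNAs kept for testing, those with a mean log2 value above 3.93, a cut set from the scaled negative control probes (mean plus 2 SD of their mean log2 values), miR-132 had the 21st largest tumour minus normal difference. The median difference over the 276 was -0.90, and 23.6% of them were above 0. miR-132 therefore lay 1.71 above the middle of the kept miRNAs on the log2 scale. That middle depended on the filter. The median was -0.31 over the 136 miRNAs detected in all samples. It was -0.12 over the 116 kept by a stricter filter from all 24 control values, where miR-132 lay 0.93 above it. Both tumours exceeded both normal livers for 42 of the kept miRNAs (15.2%), miR-132 among them. By level it ranked 94th of the kept miRNAs in tumours and 159th in normal liver.

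Of the 2 members, 1 was kept and was called higher in tumours by limma (adjusted p under 0.05 over all kept miRNAs). Over the panel 7.97% of kept miRNAs were called higher, 46.7% lower and 54.7% in either direction. The call is a description, since the contrast was known when the pair was picked. It was among the narrowest: of the 22 miRNAs called higher, miR-132 had the 20th largest difference, between miR-106b (0.82) and miR-34a (0.78). It ended when any 1 of the 4 samples was left out, with differences of 0.62 to 1.0.

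**Figure D3:**
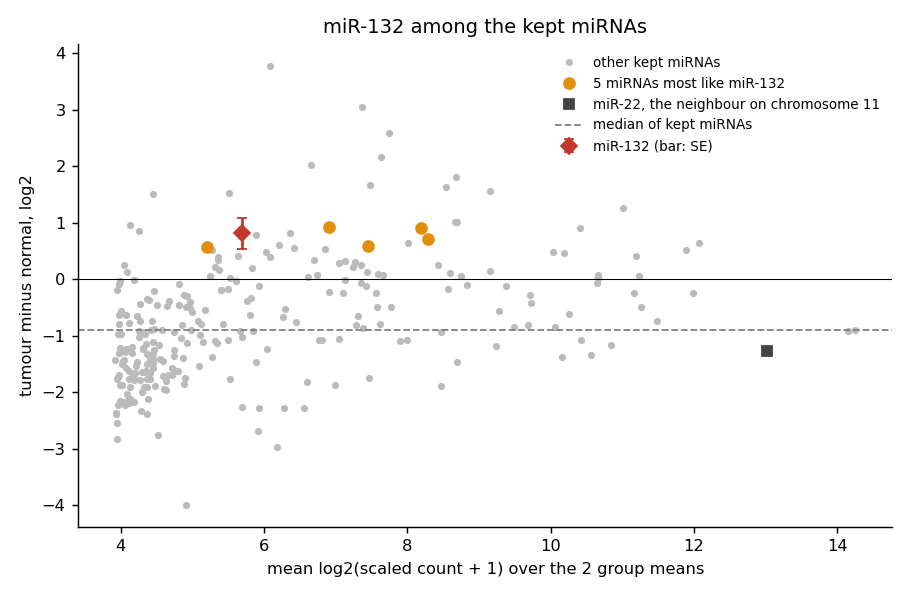
Tumour minus normal difference (log2) of the 276 kept miRNAs against their mean log2 level, in the deposited scaling; the diamond is miR-132 with its SE, circles are the 5 miRNAs whose profile was most like it and the square is miR-22. miR-132 lies at 0.81, above the dashed median of -0.90, and miR-22 at -1.27.

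The position of miR-132 against the rest of the panel moved less than its difference. For scalings by 1 factor per sample this is arithmetic, since miR-132 and the panel median shift almost alike, and no stability is read from it. With equal totals the difference was 1.27, with quantile normalization 1.42 and with equal positive controls 1.81. edgeR and DESeq2 on the recovered counts each gave 1.69, and equal medians gave 2.35. The median of all miRNAs tested moved with it, to 0.63 with equal medians and 0.09 with equal positive controls. miR-132 was 0.93 to 2.08 above that median over all 21 alternatives run, and its own difference was above 0 in each of them.

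**Figure D4:**
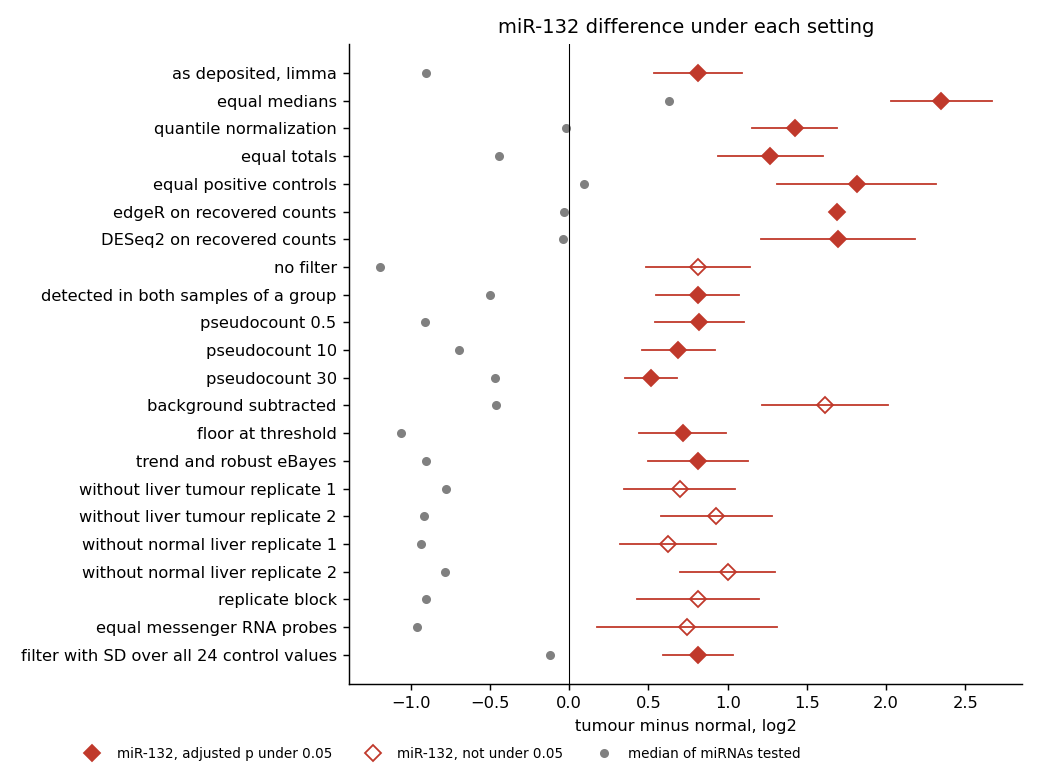
Tumour minus normal difference (log2) of miR-132 in the deposited scaling and under each other setting, with SE bars where the method gives one; filled diamonds are below 0.05 after adjustment and grey points are the median of the miRNAs tested. Every diamond lies to the right of 0 and of its grey point, from 0.52 with a pseudocount of 30 to 2.35 with equal medians.

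miR-22, the nearest miRNA on the chromosome with a probe, is abundant in many tissues and has a host transcript of its own. It had 4411 and 6413 scaled counts in the tumours, against 13183 and 12562 in the normal livers, a log2 difference of -1.27 (SE 0.29). miR-132 and miR-22 thus lay on opposite sides of 0 in the deposited scaling; with equal medians miR-22 turned to 0.30. Their ratio within a sample does not depend on scaling. There were 16.7 and 9.74 miR-132 counts per 1000 miR-22 counts in the tumours, against 2.53 and 3.47 in the normal livers, 4.30-fold higher by geometric means, and the groups did not overlap. Such a separation was common. Of the 136 mouse miRNAs above threshold in all 4 samples, 77.9% gave a miR-132 ratio higher in both tumours than in both normal livers.

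Of the miRNAs induced together with miR-132 by endotoxin in human monocytes, limma called 1 of 3, lower in the tumours. Over all kept miRNAs 46.7% were called lower, and nothing is read from the 1 of 3. miR-146a, which restrains Toll-like receptor signalling, had 407 and 254 scaled counts in the tumours, against 194 and 218 in the normal livers (log2 difference 0.64, SE 0.32). Both tumours were above both normal livers, but limma did not call it; it was called higher with equal medians, equal totals, equal positive controls, edgeR and DESeq2, and without liver tumour replicate 2. miR-155, a product of activated leukocytes, had 203 and 300 in the tumours, against 586 and 801 in the normal livers, and was the member called lower (-1.47). Its call ended with equal medians, where it turned to 0.097, with quantile normalization, equal positive controls, background subtracted, edgeR and DESeq2, and without normal liver replicate 2. The third, miR-146b, was above threshold in 1 tumour and 1 normal liver and was called, lower, without liver tumour replicate 1 and in limma with the replicate number as a block (adjusted p 0.035, against 0.12 without it).

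Neuron-enriched and activity-regulated miRNAs, the company miR-132 keeps in brain, were scarce. Of 9 on the panel 3 were kept, miR-124, miR-128 and miR-219. Each passed the filter only through the normal livers, with mean log2 values of 3.87, 3.32 and 3.8 in the tumours, below the cut of 3.93, against 5.57, 5.07 and 4.71 in the normal livers. limma called all 3 lower in the deposited scaling, where 46.7% of kept miRNAs were, and nothing is read from that count. miR-124, abundant in neurons, gave 37 and 14 counts in the tumours, against 25 and 18 in the normal livers, and was below threshold in liver tumour replicate 2. miR-219 was above threshold in 2 tumours and 1 normal liver. miR-137 was not kept; it gave 8 and 3 counts in the tumours, both below threshold, against 26 and 23 in the normal livers, both above it.

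The scaled mean of the negative controls was itself lower in the tumours, at 2.96 and 6.94, than in the normal livers, at 18.4 and 17.6. With background subtracted limma called 0 of the 3 (1 at an unadjusted p under 0.05), and miR-219 turned to 0.21. All 3 calls also ended with equal medians, quantile normalization, equal positive controls, edgeR and DESeq2, and that of miR-128 without normal liver replicate 2. That of miR-219 ended, further, without either normal liver or liver tumour replicate 1, with equal totals or equal messenger RNA probes, without a filter and with a pseudocount of 30. miR-219 was above 0 with equal medians, quantile normalization and equal positive controls as well (0.57, 0.46 and 0.056). None of these 4 miRNAs lay, as miR-132 did, higher in both tumours on the deposited scale.

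Markers of several liver cell types differed between the groups as well. In the deposited scaling 8 of 8 hepatocyte miRNAs were called lower, against 46.7% of all kept miRNAs. Among them miR-802 passed the filter only through the normal livers. Its mean log2 value was 2.92 in the tumours, below the cut of 3.93, and 6.92 in the normal livers. Of the biliary or epithelial ones 3 were called higher and 1, miR-200c, lower, of 4 kept. miR-200c too passed the filter only through the normal livers, with mean log2 values of 3.5 in the tumours and 4.81 in the normal livers, and nothing is read from its call. Of 6 stellate or mesenchymal ones 3 were called, all higher. Summed scaled counts of the stellate or mesenchymal list were 4399 to 5859 in the tumours and 2209 to 2547 in the normal livers. Those of the biliary or epithelial list were 1261 to 1301 in the tumours and 206 to 211 in the normal livers. The 2 endothelial miRNAs summed to 3879 to 4116 in the tumours and 4599 to 5229 in the normal livers, with 1 called lower, and the 7 leukocyte miRNAs to 1102 to 1383 in the tumours and 1368 to 1729 in the normal livers, with 2 called lower. Of 3 erythroid miRNAs limma called 0 (0 at an unadjusted p under 0.05), and edgeR called 3 higher. No marker probe of these lists was at 0 counts. These calls depended on the samples and the scaling, as did those over the panel. Of the 276 kept miRNAs limma called 22 higher and 129 lower in the deposited scaling, and edgeR called 71 and 39. In limma they were 44 and 10 with equal positive controls, and 12 and 5 with background subtracted. Hepatocyte falls numbered 2 without either normal liver and 1 with equal positive controls or background subtracted. Stellate or mesenchymal rises numbered 1 without normal liver replicate 1 and 0 in limma without normal liver replicate 2 or with background subtracted (3 at an unadjusted p under 0.05 in each), against 5 in edgeR over all samples. The biliary or epithelial rises numbered 3 in each of these fits, while the fall, of miR-200c, which was above threshold in 1 tumour and 0 normal livers, was called in 0 of them. The endothelial call, of miR-126-5p, ended without any 1 sample, and limma called 0 leukocyte miRNAs without normal liver replicate 2 (3 at an unadjusted p under 0.05), against 4 higher and 1 lower in edgeR over all samples. Of the 2 endothelial miRNAs edgeR over all samples called 1 higher and 0 lower. limma with equal medians did the same, where 111 of 276 kept miRNAs were called higher. The part of these markers in the miR-132 difference was not tested.

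Ratios within a sample, to every listed marker above threshold in all 4 samples, set miR-132 beside those cell types without any scaling. They were chosen after the values were seen, and in the normal livers they rest on the 16 and 19 counts of miR-132, background included. The mean of the negative controls equalled 55.2% and 40.4% of those counts, against 4.03% and 11.1% in the tumours. Background therefore weighs more on the normal liver ratios. Ratios with background subtracted were not tested, so an overlap or the direction of a small difference below may not hold without it. Over all 136 mouse miRNAs above threshold in all 4 samples, the ratio was higher in both tumours than in both normal livers for 77.9% and lower in both for 6.62%. The median log2 difference of the ratio was 1.14.

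Against hepatocyte markers the ratio was higher in both tumours for 7 of 7, by 3.31-fold to 6.63-fold. Against miR-122, miR-132 had 5.88 and 3.81 counts per 1000 in the tumours and 1.36 and 1.5 in the normal livers. Against endothelial markers it was higher for 2 of 2; miR-126-3p gave 20.3 and 16.2 per 1000 in the tumours and 6.98 and 10.7 in the normal livers, 2.09-fold higher.

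The ratio was lower in both tumours for 2 of 2 biliary or epithelial markers. Against miR-200b it was 140 and 118 per 1000 in the tumours and 457 and 422 in the normal livers, a log2 difference of -1.77. The stellate or mesenchymal markers were split, with the ratio lower for miR-199a-5p, miR-199a-3p and miR-125b-5p and higher for miR-143 and miR-145. Against miR-125b-5p it was 21.4 and 21.2 in the tumours and 23.7 and 34.9 in the normal livers, a log2 difference of -0.43 with SDs of 0.0096 in tumours and 0.39 in normal liver, about the spread of the normal livers.

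The leukocyte markers differed among themselves as well. The ratio was higher in both tumours for 5 of 7, near the 77.9% of all 136, and overlapped for miR-146a and miR-342-3p. Against miR-155 it was 362 and 208 per 1000 in the tumours and 56.9 and 54.4 in the normal livers, 4.93-fold higher. Against miR-146a it was 181 and 246 in the tumours and 172 and 200 in the normal livers. Of the erythroid markers miR-451 overlapped, with 55.8 and 43.5 in the tumours and 30.6 and 48.3 in the normal livers, while miR-144 did not, with 205 and 174 in the tumours and 77.3 and 116 in the normal livers.

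**Figure D5:**
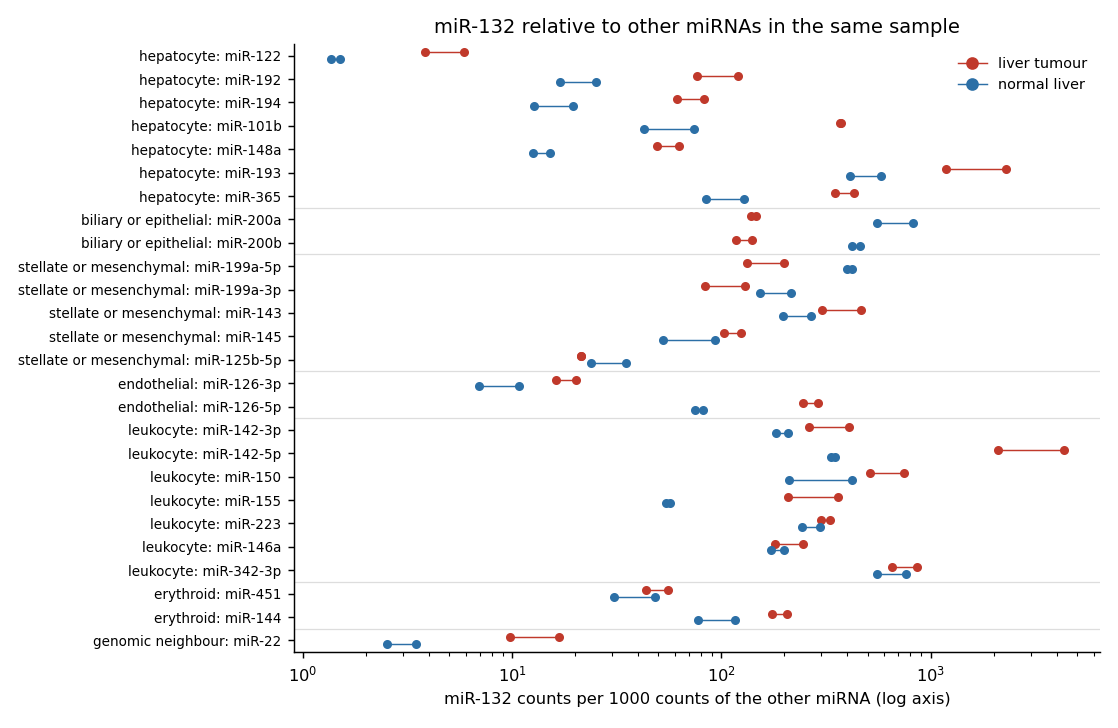
Counts of miR-132 per 1000 counts of another miRNA in the same sample (log axis), background included. Shown are each listed marker above threshold in all 4 samples and miR-22. Each point is 1 sample and a line joins the 2 samples of a group. Tumour points lie right of the normal points for all 7 hepatocyte and both endothelial markers and for miR-22, left of them for miR-200a and miR-200b, and on either side or among them for the stellate or mesenchymal, leukocyte and erythroid markers.

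The miRNAs with the profile closest to that of miR-132 over the 4 samples all had a positive tumour minus normal difference in the deposited scaling. Likeness was the root mean square distance between log2 values, each centred on its own mean, over 275 kept miRNAs. The closest was miR-15b, of the miR-15/16 family that represses cell cycle genes, at 0.098 on the log2 scale. It had 411 and 384 scaled counts in the tumours, against 200 and 225 in the normal livers. Next came miR-450a-5p (0.13), let-7e (0.14), miR-99b (0.14) and myeloid miR-223 (0.16), whose tumour minus normal differences were 0.57, 0.72, 0.93 and 0.59. With 4 samples from 2 groups, likeness here says little more than a difference of similar size. For miR-212 the same rule gave miR-329, miR-324-5p, miR-1839-5p, miR-190 and miR-486, at distances of 0.46 to 0.49, against a profile made of counts below threshold.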

How the data were processed

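Per the labels' protocols, total RNA was extracted with TRIzol and hybridised in the nCounter miRNA Expression Assay. The deposited values are signal, probe counts times 1 factor per sample by the authors; its software and basis are not stated there. The step of each sample's values gave the factor, and 100% of scaled values were whole counts within 0.1. The 618 probes comprised 566 mouse miRNA, 33 herpesvirus, 4 messenger RNA, 3 plant or worm, 6 positive and 6 negative control probes; the last 3 kinds were unscaled, and the negative controls were multiplied by the factor for the filter.

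limma 3.58.1 (lmFit, eBayes) was fitted to log2(value + 1) of 276 kept miRNAs, with Benjamini-Hochberg adjustment and a threshold of 0.05. Alternatives were other scalings, filters, pseudocounts of 0.5, 10 and 30, background handling, each sample left out, the replicate number as a block, edgeR 4.0.16 and DESeq2 1.42.0 on recovered counts. The fits were also run on simulated counts with known changes. For limma those were centred on the unchanged miRNAs, so that run does not test the deposited scaling. On whole counts edgeR called 110 miRNAs. Named miRNAs were the 2 members, the 5 kept miRNAs closest to each, panel miRNAs with the same seed or within 500 kb, and up to 4 per fixed list. Members and lists were chosen with earlier results of these data known. Intervals and thresholds cover counting error only.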

Additional observations from a re-analysis of the deposited data

How the results depend on the processing

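The miR-132 difference was above 0 under each of 21 alternatives (0.52 to 2.35, against 0.81 as deposited) and stayed past the threshold in 13. It was not past it without a filter (0.81), with background subtracted (1.61), with the replicate block (0.81), or with equal messenger RNA probes (0.74), a scaling added after seeing the data. Nor was it with any 1 sample left out (0.62 to 1.0). A fit on the miRNAs detected in all 4 samples gave no value, since miR-132 is not among them. The replicate numbers are only numbers here: the deviations of same-numbered samples had a correlation of 0.042. No other call of a member hung on the block, which called 162 miRNAs.

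The miR-212 values are background, so the numbers that follow show how background moves with the setting and not a change in miR-212. Their log2 difference of -0.24 turned to 1.03 with equal medians and 0.93 with quantile normalization, and was -1.59 with values raised to the threshold. Leaving out 1 sample gave -1.26 to 0.77. miR-212 minus miR-132 was -1.05, and moved to -2.33 with background subtracted and -2.31 at the threshold; it was -2.26 to 0.15 with 1 sample left out. For miR-212 no value is given from the filters, the variance model, the block or the count tools. The fit without a filter did include its probe, and its result there is not reported.

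The number of miRNAs called, 151 as deposited (22 higher and 129 lower), was 31 with quantile normalization (18 and 13), 54 with equal positive controls (44 and 10), 65 in DESeq2 (53 and 12) and 17 with background subtracted (12 and 5). It was 292 without a filter (16 and 276), 67 and 96 on miRNAs detected in all samples or in both of a group, and 53 with a filter from all 24 control values, added after seeing the data. With equal medians 111 were higher and 7 lower, with equal totals 34 and 74, and in edgeR 71 and 39. It was 54 to 145 with 1 sample left out. The counts of miR-132 in the normal livers limit every fold given for it.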
